A study of Arabidopsis thaliana with 54 samples.

Results

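Whole seedlings of Arabidopsis thaliana treated with guvermectin (GV, 10 µM) were compared with control seedlings at 180 min, with 3 libraries in each group. The genes described were those with a mean of at least 1 FPKM (fragments scaled to the length of the gene and the size of the library) in either group. That rule kept 9109 of the 23997 genes in the table. They included 439 genes at that level with GV but not in the control, 323 in the control but not with GV, and 8347 in both. The wider study held 54 libraries in 18 groups. It sampled GV, 1 µM indole-3-acetic acid (IAA, the main natural auxin), 1 µM trans-zeatin (ZT, a cytokinin), 1 µM epibrassinolide (eBL, a brassinosteroid), 1 µM gibberellin A3 (GA3) and a control at 5, 30 and 180 min. The labels give neither the age nor the ecotype of the seedlings, nor whether libraries with the same treatment and time stem from independent cultures. All p-values therefore rest on the variation among these libraries and may hold technical variation alone. The library columns read as GV were recognised by elimination, after the control and the 4 hormones had been matched by name.

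Guvermectin is a purine nucleoside analogue made by Streptomyces and used as a plant growth regulator. An Arabidopsis seedling passes from the embryo programme, in which storage proteins, oil bodies and desiccation-protecting proteins are made under abscisic acid and its transcription factors, to growth that uses those stores. In the growing root, the outer cap cells are shed or die in an ordered way with the help of proteases, nucleases and cell wall enzymes. The endodermis around the vascular tissue meanwhile seals itself with a lignin band and with suberin.

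With the values read as FPKM, the 6 libraries implied totals of 19.3 to 21.2 M reads, of which 31.7% to 33.2% lay in the table. Values correlated at 0.977 to 0.982 (Pearson's r of log2 levels across genes) within a group and at 0.955 to 0.962 between the groups. The table held no genes whose mean over all 54 libraries lay between 10.5 and 344 FPKM, so genes in that range were not analysed here. The level of a gene in single groups can still lie between these limits. Samples were whole seedlings, so fewer cells of a type and less RNA per cell cannot be told apart in any result below.

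At 180 min, 584 genes were higher with GV (6.41% of those described) and 360 were lower (3.95%), 944 in all (10.4%), by limma's moderated test on log2(FPKM + 1) with a Benjamini-Hochberg adjusted p under 0.05. The genes that rose did so by a median of 0.57 on that scale, and those that fell had a median of -0.51. A change above 1 was seen in 35 of the genes that rose, and a change below -1 in 59 of those that fell. The median over all genes described was -0.0046. The values of the groups did not overlap in 3052 genes (33.5%). The spread was estimated over all 54 libraries, and the third eBL library at 30 min weighed on it: without that library, 821 genes rose and 580 fell.

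**Figure D1:**
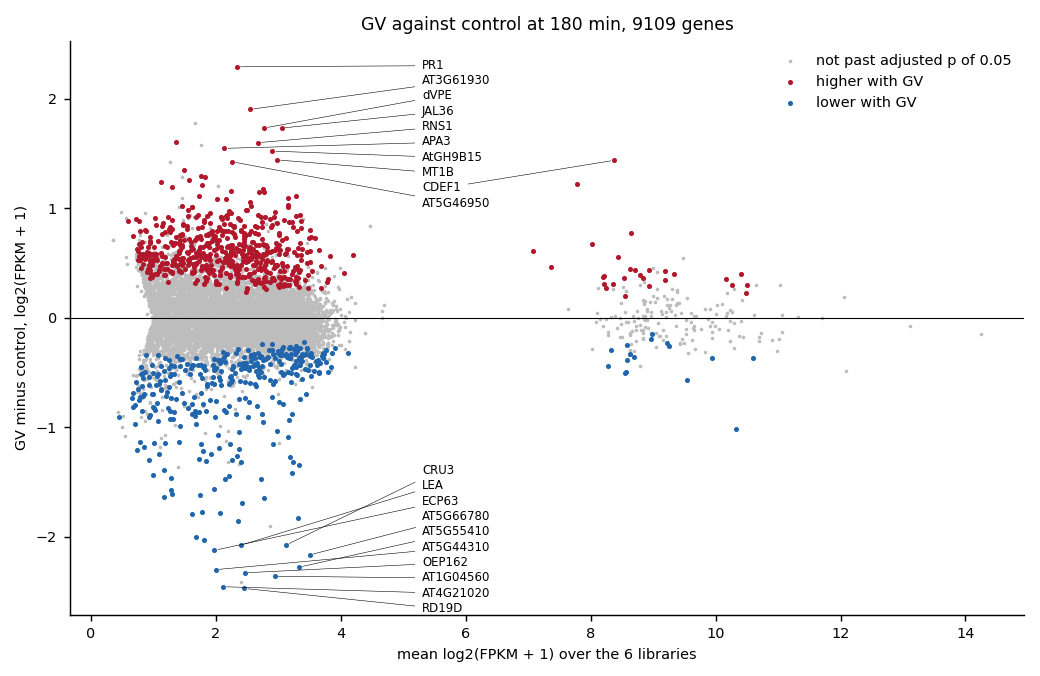
Change with GV against mean level for the 9109 genes at 180 min. Each point is 1 gene, red where higher and blue where lower with GV at an adjusted p under 0.05, and grey otherwise. The x axis is the mean log2(FPKM + 1) of the 6 libraries, the y axis the difference of group means, and lines lead to the names of 10 genes on each side. Few points lie between the low and the abundant genes because the table holds no gene with a mean over all 54 libraries between 10.5 and 344 FPKM.

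The 15 largest falls included 6 genes of late embryogenesis abundant (LEA) proteins or dehydrins, which protect drying seeds, and a seed storage protein. The 15 largest rises included a defence gene, proteases, a ribonuclease and cell wall enzymes. The promoters of 2 of the former and 1 of the latter are shown as examples of windows with motifs of seed promoters. Each is the 250 bases before the annotated gene start in RefSeq TAIR10.1, with 3 motifs in capitals on either strand: ACGTG, the core of the abscisic acid response element, CATGCA, the RY element of embryo B3 factors, and TTGAC, the W-box core.
OEP162 (chr4:9157221-9157470, plus strand): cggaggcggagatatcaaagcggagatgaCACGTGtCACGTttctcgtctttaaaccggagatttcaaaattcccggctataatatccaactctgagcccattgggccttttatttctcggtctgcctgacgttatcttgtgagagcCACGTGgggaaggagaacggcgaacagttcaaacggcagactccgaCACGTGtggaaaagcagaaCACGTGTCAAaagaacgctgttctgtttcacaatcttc
RD19D (chr3:20354101-20354350, plus strand): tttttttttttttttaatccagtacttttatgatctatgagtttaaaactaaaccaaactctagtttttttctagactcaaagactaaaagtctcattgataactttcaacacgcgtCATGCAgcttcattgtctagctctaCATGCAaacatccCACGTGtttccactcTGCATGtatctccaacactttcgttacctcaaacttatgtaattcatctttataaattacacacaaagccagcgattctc
dVPE (chr3:7052097-7052346, plus strand): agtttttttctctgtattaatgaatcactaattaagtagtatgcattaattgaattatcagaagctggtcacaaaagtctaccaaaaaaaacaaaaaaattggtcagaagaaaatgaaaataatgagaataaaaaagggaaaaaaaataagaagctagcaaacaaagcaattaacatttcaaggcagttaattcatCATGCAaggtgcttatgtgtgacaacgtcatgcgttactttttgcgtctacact

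The OEP162 window held 9 matches to the abscisic acid core, where a palindromic site counts once on each strand, and 1 to the W-box core. The RD19D window held 3 matches to the RY element and 2 to the abscisic acid core, while the dVPE window held 1 RY match and none of the other motifs in capitals. Of the 29 windows of both sets, OEP162 held the most abscisic acid cores and RD19D the most RY matches, so neither is typical. The abscisic acid core was present in 11 of 14 windows (78.6%) of the 15 genes with the largest falls, 1 of which codes for no protein. It was present in 6 of 15 windows (40%) of those with the largest rises and in 23.2% of the 8535 windows of protein-coding genes described. The longer G-box, CACGTG, which contains that core on both strands, was in 7 of 14 windows of the falls (50%), in 0 of 15 of the rises and in 7.52% of all. The RY element was in 5 of the 14 and 5 of the 15 windows, against 8.44% of all. The W-box core was in 35.7% of the windows of the falls, 40% of those of the rises and 45.7% of all. A core of the as-1 element, TGACG, which can share bases with the W-box core, was in 35.7%, 26.7% and 19.0% in the same order. The TATA motif, TATAAA, was in 42.9%, 53.3% and 46.0%. The evening element of clock genes was in 0 of these 29 windows and in 2.60% of all. Over all 348 windows of genes that fell, 30.7% held the abscisic acid core and 14.4% the G-box, against 23.2% and 6.07% of the 577 windows of genes that rose. A match describes these letters and does not show that a factor bound there.

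Genes of proteins that protect or fill the dry seed are described first. RD19D, a papain-type cysteine protease (chromosome 3, 20354351 to 20356363), was at 1.18, 1.16 and 1.67 FPKM with GV against 13.3, 11.8 and 10.7 in the control. The groups lay far apart, and the difference was -2.47 ± 0.16 (SE, n = 3 and 3, limma adjusted p = 9.76e-16). The LEA gene AT4G21020 was at 1.22, 0.585 and 0.783 FPKM against 9.22, 9.39 and 8.79, a difference of -2.46 ± 0.23 (limma adjusted p = 6.67e-11). ECP63, an embryonic LEA protein, was at 0.789, 0.699 and 1.19 FPKM against 7.58, 7.01 and 7.04. Every GV library was below every control library in these genes, as the rule for choosing the 15 largest falls required. EM1, the classic abscisic acid-induced LEA protein of seeds, was at 1.56, 1.18 and 1.04 FPKM against 5.90, 7.50 and 6.93, a difference of -1.78 ± 0.23 (limma adjusted p = 2.29e-07). These levels are low, and the 15 genes with the largest falls rested on 1 to 136 reads per GV library and 14 to 631 per control library.

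The storage protein cruciferin 3 (CRU3) stood at 2.96, 3.42 and 3.33 FPKM with GV against 17.2, 16.6 and 16.8 in the control, a difference of -2.08 ± 0.12 (limma adjusted p = 1.08e-16). Oleosin 2 (OLEO2), a coat protein of oil bodies, was at 0.391, 1.66 and 0.877 FPKM against 4.69, 5.10 and 4.84, a difference of -1.62 ± 0.24. The groups were again apart in both genes, which for CRU3 the rule for choosing it required. VTE4, which makes alpha-tocopherol, a form of vitamin E, was at 4.97, 3.82 and 4.09 FPKM against 18.1, 19.3 and 16.0. OEP162, annotated in the family of the Tim17, Tim22 and Tim23 import proteins, was at 1.48, 1.11 and 1.83 FPKM against 10.4, 11.9 and 11.7. The other genes among the 15 largest falls were the LEA genes AT5G44310 and AT5G66780, the dehydrin LEA, AT1G04560 of the AWPM-19-like membrane protein family, the lipid-transfer protein AT5G55410, the cold-regulated AT3G03341, AT1G65090 and the RNA gene AT3G04155. Their changes ran from -2.36 to -1.86. The call for AT3G04155 was lost without the third GV library, with a change of -1.47 and a limma adjusted p of 0.101.

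**Figure D2:**
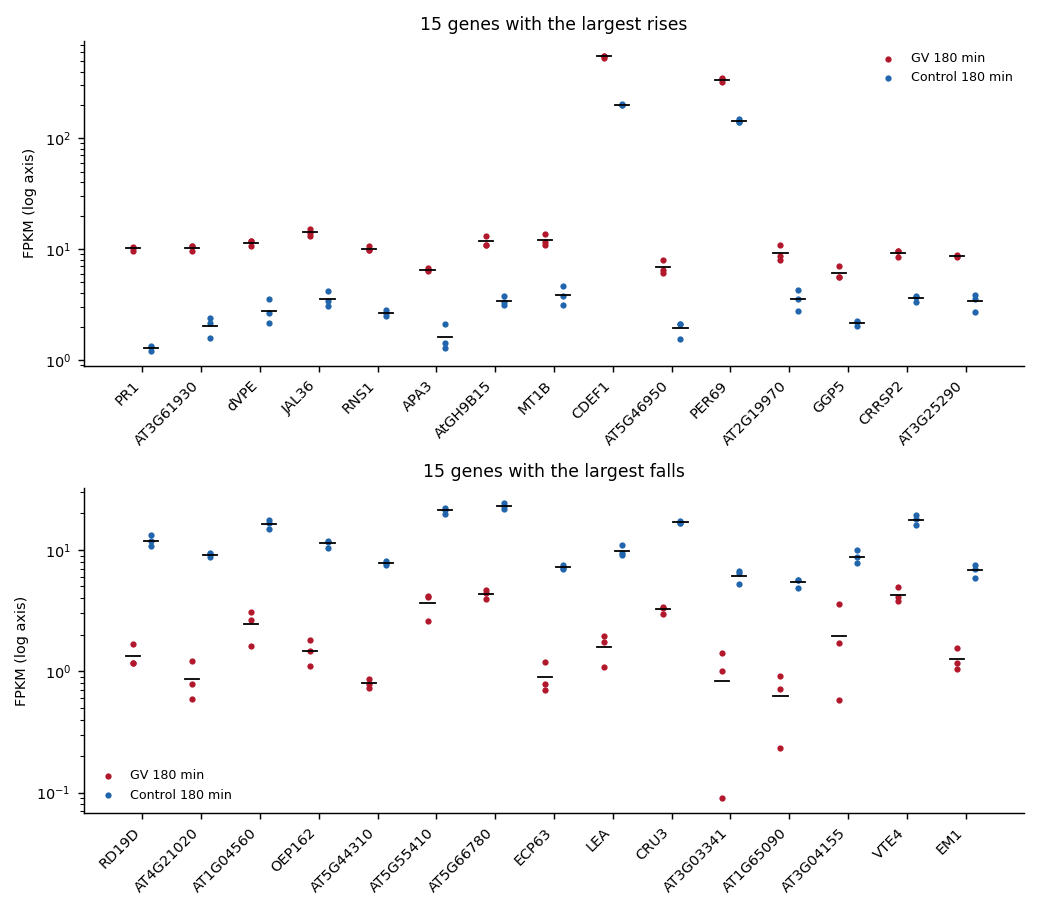
Level in each of the 3 GV (red) and 3 control (blue) libraries at 180 min for the 15 genes with the largest rises (top) and the largest falls (bottom). The y axes are FPKM on a log scale and the black bars are group means. The 2 groups do not overlap in any of the 30 genes, as the rule for choosing them required.

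Of the list of seed storage, oleosin and LEA genes, 10 of 20 were described, 8 fell and 0 rose, with a median of -1.15. Beside CRU3, ECP63, EM1 and OLEO2, the genes OLEO1, OLEO3, M17 and the seed peroxiredoxin PER1 fell, by 0.72 to 1.15. With a pseudocount of 0.1 in place of 1, OLEO1 changed by -1.44 and was not called (limma adjusted p = 0.0939). The 2S albumins AT2S3 and SESA5 missed the threshold at 0.44 and -0.50. The summed level of the 10 genes was 18.0 to 20.6 FPKM in the GV libraries and 61.7 to 63.8 in the control libraries. SESA1, SESA4 and HSD1 were listed at 0 in 2 to 3 of the 6 libraries. Among all genes annotated as LEA or dehydrin, a family chosen after the values were seen, 12 of 19 fell and 2 rose, with a median of -1.04. The summed level of that family was higher with GV, at 856 to 941 FPKM against 682 to 708. Most of that sum was the dehydrin HIRD11, which was at 810, 871 and 898 FPKM against 574, 594 and 604. Its change of 0.54 did not pass the test (limma adjusted p = 0.114). Of 7 oleosins by annotation 5 fell, and the abundant AT1G13930 rose by 0.34. Their sum was 632 to 686 FPKM with GV and 532 to 561 in the control. With a pseudocount of 0.1, 3 of these oleosins fell.

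The regulators of the seed programme were lower too. In a list made after the values were seen, 8 of 10 genes fell and 0 rose, with a median of -0.90. ABI4, an AP2-type factor that carries abscisic acid and sugar signals in seedlings, was at 2.08, 1.70 and 1.67 FPKM with GV against 6.02, 7.23 and 6.80, a difference of -1.45 ± 0.14 (limma adjusted p = 1.08e-10). AHG1, a seed phosphatase that restrains abscisic acid signalling, was at 0.392, 0.532 and 0.320 FPKM against 2.54, 3.07 and 4.14, a difference of -1.57 ± 0.14. The abscisic acid receptor PYL2 was at 2.41, 1.27 and 1.42 FPKM against 6.11, 6.24 and 6.79, a difference of -1.47 ± 0.14. In all 3 the groups were apart. The embryo factor ABI3 fell by 0.40 and AIL5 by 0.88, with the MADS gene AGL67 at -0.92. ABI5, the bZIP factor that acts through ACGTG elements, was at 4.41, 4.61 and 5.58 FPKM against 5.27, 6.45 and 7.79, which overlapped. Its change of -0.35 was called at a limma adjusted p of 0.0432. That call was lost without the second control library (0.106), the third control library (0.325), the first GV library (0.184) or the second GV library (0.138), at changes of -0.23 to -0.35.

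Genes that turn seed oil into sugar could be followed through isocitrate lyase (ICL), the entry enzyme of the glyoxylate cycle. ICL was at 861, 881 and 946 FPKM with GV and at 1826, 1833 and 1798 in the control, a difference of -1.02 ± 0.07 (limma adjusted p = 2.52e-14). This value rested on 36879 to 85920 reads per library, so counting error was small. PCKA, the carboxykinase that follows in the route to sugar, was at 284 ± 2.1 FPKM (SD, n = 3) with GV and at 300 ± 3.4 (SD, n = 3) in the control, and the change of -0.08 did not pass the test. At 30 min both of these genes were lower with GV, with a median of -1.20. At 5 min 1 was higher and 0 lower, with a median of 1.02, beside a median of -0.55 at 180 min. The other 16 genes of the list of 18 were not described.

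Among the gibberellin genes, 2 of 12 rose and 3 fell, with a median of -0.11. GA3OX2, which makes active gibberellin in germinating seeds, was at 1.95, 2.34 and 2.85 FPKM with GV against 6.75, 7.89 and 7.49, a difference of -1.32 ± 0.17 (limma adjusted p = 1.4e-07). RGL2, the DELLA repressor that holds back germination, was at 2.21, 2.06 and 2.54 FPKM against 6.61, 7.38 and 6.49, a difference of -1.26 ± 0.13. Both fell with no overlap between the groups, as did the DELLA gene RGL3, by 0.86. GA2OX6, which inactivates gibberellin, was at 3.73, 3.31 and 4.34 FPKM against 1.84, 1.67 and 1.93, a rise of 0.76 ± 0.15. GASA1, a small gibberellin-regulated peptide, rose by 0.40, a call lost without the third control library (change 0.37, limma adjusted p = 0.0654) or the third GV library (0.38, 0.0503).

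The gene with the largest rise was PR1 (chromosome 2, 6241640 to 6242541), a secreted antimicrobial protein and the standard marker of salicylate defence. It was at 10.5, 9.67 and 10.2 FPKM with GV against 1.3, 1.2 and 1.34 in the control, a difference of 2.29 ± 0.18 (SE, n = 3 and 3, limma adjusted p = 6.37e-13), on 176 to 184 reads against 23 to 25. PR1 alone passed the test among the 10 salicylate genes described, whose median was 0.09. JAL36, a jacalin-type lectin, was at 13.0, 15.3 and 14 FPKM against 3.09, 3.42 and 4.21, a difference of 1.73 ± 0.09 (limma adjusted p = 8.21e-18). Both genes showed no overlap between groups, as the rule for choosing the 15 largest rises required. Of 10 jacalin or mannose-binding lectins, a family chosen after the values were seen, 5 rose and JAL20 fell. The fall of JAL20, -0.38, was lost without the first control library (-0.31, limma adjusted p = 0.0851) or the first GV library (-0.29, 0.11).

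Of the genes of root cap shedding and developmental cell death, 8 of the 10 described rose and 0 fell, with a median of 0.78. The vacuolar processing enzyme dVPE, a caspase-like protease, was at 10.7, 11.7 and 11.9 FPKM with GV against 2.15, 3.55 and 2.66, a difference of 1.73 ± 0.16 (limma adjusted p = 2.98e-11). APA3 (also PASPA3), an aspartic protease expressed before programmed cell death, was at 6.37, 6.41 and 6.75 FPKM against 1.41, 1.28 and 2.09, a difference of 1.55 ± 0.22. CDEF1, a cutinase that loosens cuticle and suberin, was at 558, 529 and 554 FPKM against 205, 199 and 200, a difference of 1.44 ± 0.18 (limma adjusted p = 2.25e-07), on 6094 to 16591 reads. In none of these genes did the groups overlap.

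The other members that rose were the KDEL-tailed cysteine proteases CEP2 at 0.96 and CEP1 at 0.68, the nuclease ENDO1 (also BFN1) at 0.78, ALPHA-VPE at 0.78 and the xylem protease XCP2 at 0.51. CEL5 and XCP1, a cellulase of the root cap and a protease of xylem, had changes of -0.07 and -0.01 and did not pass. The factors that specify the cap stayed near the bottom of the scale in all 6 libraries: SMB was at 0.354 to 0.763 FPKM, BRN1 at 0 to 0.259 and BRN2 at 0 to 0.482. Summed over the list, levels were 575 to 601 FPKM with GV and 223 to 227 in the control. Without CDEF1 they were 42.5 to 46.9 and 22.4 to 24.8. The control at 180 min had the lowest mean sum of the 18 groups, with or without CDEF1. Without it, the other compounds at 180 min gave 26.6 to 27.8 FPKM (IAA) and 40.6 to 42.0 (ZT). For eBL the range was 42.8 to 44.4 and for GA3 36.5 to 40.0. The full sum was 606 to 625 FPKM with IAA at 5 min. How far a difference in the amount of cap or dying tissue between the pools took part was not tested.

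RNS1, a secreted ribonuclease induced by phosphate shortage and wounding, was at 10.8, 9.74 and 9.78 FPKM with GV against 2.50, 2.82 and 2.67, a difference of 1.60 ± 0.33 (limma adjusted p = 0.000915). PHO1, the exporter that loads phosphate into the xylem, rose by 0.29 at a limma adjusted p of 0.0497, and 5 of 6 libraries each ended that call when left out, with changes of 0.24 to 0.32: the 3 control libraries (limma adjusted p 0.102, 0.0636 and 0.194) and the second and the third GV libraries (0.172 and 0.206). Of the 7 phosphate genes, no other passed. The remaining genes among the 15 largest rises were AT3G61930, the glycosyl hydrolase AtGH9B15, the metallothionein MT1B, the invertase or pectin methylesterase inhibitor AT5G46950, the secretory CAP protein AT2G19970, GGP5, CRRSP2 and AT3G25290 of an auxin-responsive family, with changes from 1.15 to 1.90.

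PER69, a class III peroxidase, was at 320, 341 and 346 FPKM with GV against 148, 141 and 140, a difference of 1.22 ± 0.09 (limma adjusted p = 1.07e-13). Of 23 class III peroxidases, chosen as a family after the values were seen, 11 rose and PER46 fell, with a median of 0.49. The fall of PER46, -0.68, was lost without the first or the third control library (limma adjusted p 0.0501 and 0.106) or without the second or the third GV library (0.0546 and 0.158). In a list of the endodermal barrier, also made after the values were seen, 6 of 8 rose and 0 fell, with a median of 0.81. MYB36, the factor that directs the endodermis to build its lignin band, was at 4.04, 5.84 and 4.95 FPKM against 1.62, 2.42 and 2.89, a difference of 0.85 ± 0.19 (limma adjusted p = 0.00152). PER64, which polymerises the lignin of the band, was at 13.7, 12.6 and 9.68 FPKM against 7.46, 5.94 and 5.99, a difference of 0.79 ± 0.14. CYP86A1, an oxidase of suberin synthesis, was at 1.61, 2.26 and 1.58 FPKM against 0.520, 0.329 and 0.646, a difference of 0.91 ± 0.15. The groups did not overlap in these 3 genes. CASP5 rose by 0.83, a call lost without the third control library (change 0.71, limma adjusted p = 0.0967) or the third GV library (0.71, 0.0957).

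Of the wider list of root and root hair genes, 3 of 10 rose and 0 fell, with a median of 0.31. In the fit of the compared groups alone 5 rose. The 3 included MYB36 and the vacuolar aquaporin TIP2-3, which was at 4.64, 5.17 and 3.91 FPKM against 1.09, 1.25 and 1.52, a difference of 1.28 ± 0.16. BGLU23 (also PYK10), the most abundant root beta-glucosidase, was at 1763, 1752 and 1782 FPKM against 1438, 1441 and 1436, and its change of 0.30 did not pass. The root hair factor BHLH54 (also RSL4) was at 3.25, 2.59 and 2.35 FPKM against 2.74, 1.27 and 2.09, which overlapped. Summed without BGLU23, the list stood at 32.7 to 33.8 FPKM with GV and at 20.3 to 25.4 in the control, and IRT1 was listed at 0 in all 6 libraries. The part that a difference in root share between the pools had in these results was not tested. In the green tissue list, LHCA1 fell by 0.37 and no other of 22 genes passed, and the summed level was 53661 to 57133 FPKM with GV and 60410 to 62941 in the control.

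Cell wall loosening genes moved both ways, with 3 of 14 higher, 2 lower and a median of 0.35. Fitted on the compared groups alone 6 were higher, and 5 were higher without the third eBL library at 30 min. ATXTH17 was at 8.64, 8.77 and 8.85 FPKM with GV against 4.92, 3.6 and 5.11, a rise of 0.83 ± 0.16. XTH5, an enzyme of the same xyloglucan-cutting family, was at 4.63, 5.37 and 4.57 FPKM against 13.5, 13.4 and 12.4, a fall with a difference of -1.27 ± 0.10 (limma adjusted p = 5.62e-13). The abundant XTH4 rose by 0.43 and XTH24 by 0.44, and the expansin EXPA15 changed by -0.54. The call for EXPA15 was lost without the third control library (change -0.49, limma adjusted p = 0.0772) or the second GV library (-0.49, 0.0711), and that for XTH24 was lost after quantile normalization (0.35, 0.0701).

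The auxin, cytokinin, jasmonate and brassinosteroid lists gave 1 call each or none, beside 10.4% called over all genes described. LBD18 at 0.55 was the only call among 14 auxin genes, CRF5 at -0.37 the only one among 10 cytokinin genes, AOC3 at 0.55 among 8 jasmonate genes, and none of 4 brassinosteroid genes passed. Their medians were 0.04, -0.00, 0.22 and 0.16. The calls for LBD18 and CRF5 were not stable: LBD18 was lost without the third control library (change 0.33, limma adjusted p = 0.215) or the first GV library (0.49, 0.0716), and CRF5 without the first control (-0.30, 0.183), the third control (-0.39, 0.0612) or the first GV library (-0.29, 0.198). Of 5 ethylene genes 2 rose and 1 fell, with a median of 0.39. ACO1, which makes ethylene from its precursor, was at 7.87, 7.04 and 7.81 FPKM with GV against 12.4, 12.5 and 13.7, a difference of -0.70 ± 0.10. EDF3, an ethylene-responsive factor, rose by 0.65.

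Among 10 genes of purine metabolism and transport, the pathway to which a nucleoside analogue is related by structure, ASE1 of the first step of purine synthesis changed by -0.55 and no other passed. Its call was lost without the first or second library of either group, at changes of -0.46 to -0.56 (limma adjusted p 0.0831, 0.179, 0.132 and 0.111). None of 18 cell cycle, 7 detoxification, 4 touch or 1 heat shock genes passed, with medians of -0.00, 0.09, 0.20 and -0.15. Of 9 clock genes 3 were lower and 0 higher: RVE8 at -0.59, LHY at -0.34 and LNK1 at -0.28. The calls for LHY and LNK1 were each lost without 3 of the 6 libraries. For LHY these were the first control library (change -0.30, limma adjusted p = 0.103), the first GV (-0.32, 0.0795) and the third GV library (-0.28, 0.145), and for LNK1 the first control (-0.19, 0.316), the second control (-0.30, 0.0815) and the second GV library (-0.17, 0.355).

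The smaller metabolic lists held single changes. ASN1, the asparagine synthase of sugar-starved tissue, rose by 0.20 and POX1 (also ERD5), which breaks down proline, was at 738, 723 and 760 FPKM with GV against 559, 551 and 572, a rise of 0.40 ± 0.05 (limma adjusted p = 3.07e-07). No other of 6 sugar starvation genes passed. MYB12, which switches on flavonol synthesis, rose by 0.70 from 0.516 ± 0.11 to 1.46 ± 0.25 FPKM (SD, n = 3), while none of the other 10 flavonoid genes passed. The nitrate and phosphate regulator HRS1 rose by 0.57, a call lost without the first control library (change 0.44, limma adjusted p = 0.0919) or the second GV library (0.49, 0.0612). ERF071 (also HRE2), a factor of the low oxygen response, was at 0.429, 0.823 and 0.361 FPKM against 1.51, 3.47 and 2.4, a difference of -1.14 ± 0.28. That call was lost without the second control library (-0.94, limma adjusted p = 0.0609). Of 7 abscisic acid and cold genes, RD29A rose by 0.40 beside the fall of ABI5, and its call was lost without the first or the third control library (limma adjusted p 0.0781 and 0.0907, changes 0.36 and 0.35) or the second GV library (0.0568, 0.39).

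**Figure D3:**
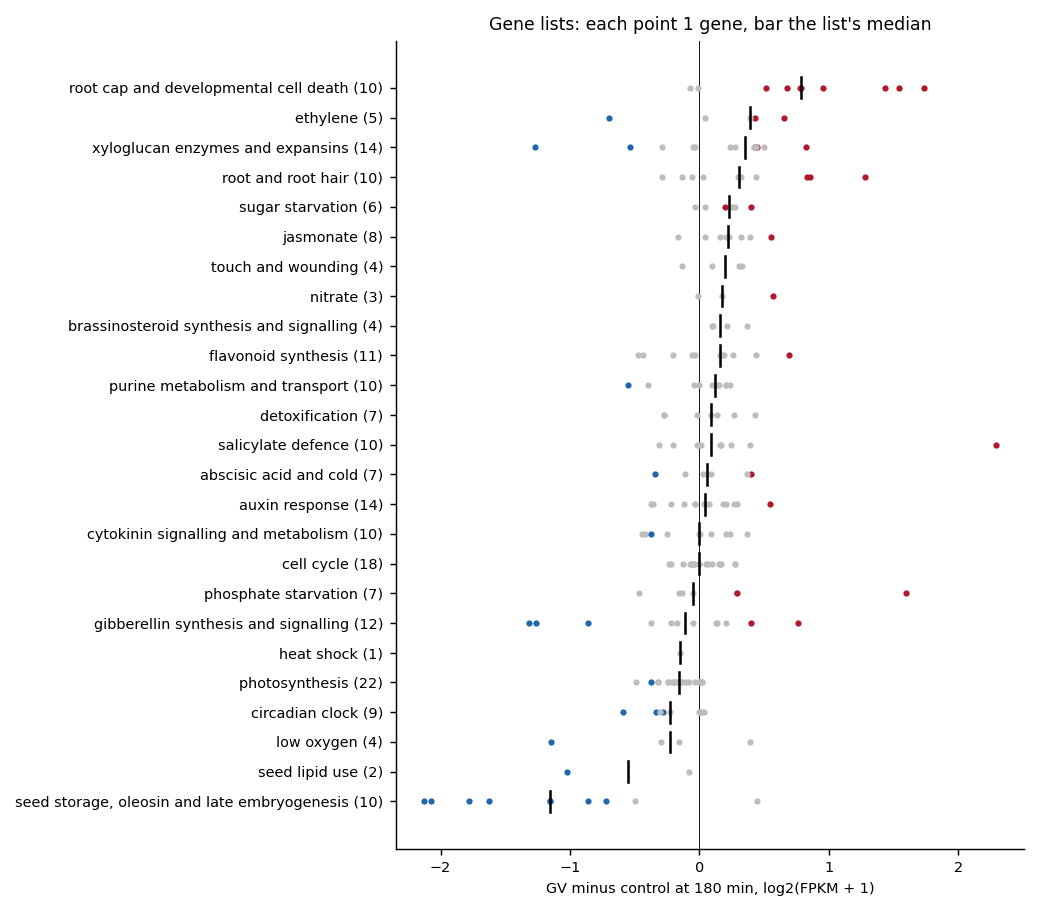
Change with GV at 180 min for the genes of 25 lists, ordered by median. Each point is 1 gene (red higher, blue lower at an adjusted p under 0.05, grey not called), the black bar is the median of the list and the number in brackets is the number of genes described. The seed list lies lowest at -1.15 and the root cap and cell death list highest at 0.78.

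The genes called at 180 min were next read in the GV and control libraries of the earlier times. Those libraries enter the shared estimate of the spread but not the group means compared at 180 min. At 30 min, 150 of the same 9109 genes were higher with GV (1.65%) and 312 lower (3.43%). Of the 584 genes higher at 180 min, 60 were higher at 30 min too (10.3% of the former, 40.0% of the latter) and 19 were lower. Of the 360 lower at 180 min, 101 were lower at 30 min (28.1% and 32.4%) and 8 were higher. At 5 min, 604 genes were higher (6.63%) and 294 lower (3.23%). The genes lower at 180 min then more often had the opposite sign, since 89 of them (24.7%) were higher at 5 min and 17 (4.72%) lower. Of the genes higher at 180 min, 97 were higher at 5 min (16.6%) and 56 lower (9.59%).

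The change of the GV effect between times, tested as an interaction, passed upward in 330 genes (3.62%) and downward in 136 (1.49%) for 180 against 30 min. For 180 against 5 min it passed upward in 424 genes (4.65%) and downward in 455 (5.00%). After quantile normalization the latter counts were 564 and 431, and with median ratio scaling 468 and 425. Without the third eBL library at 30 min, the counts for 180 against 30 min were 555 and 275.

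Among the 15 genes with the largest falls, 12 were also lower with GV at 30 min and CRU3 was higher, while at 5 min 8 were higher and CRU3 was lower. From 30 to 180 min the control itself went up in 8 of these 15 genes and down in 0, with a median of 0.98. Over all genes described it went up in 15.1% and down in 9.43%. Under GV the median change of the 15 genes between these times was -0.25. These values share the 180 min libraries with the ranking, so they are given beside it. At 5 min RD19D was at 7.24 ± 0.88 FPKM (SD, n = 3) with GV, above the control at 3.35 ± 0.56. At 30 min the order had turned, with 1.73 ± 0.25 under GV and 5.59 ± 0.95 in the control. CRU3 took the opposite course. At 5 min its GV libraries held 2.42 ± 0.17 FPKM and the control libraries 13.4 ± 0.49, and at 30 min they held 10.0 ± 1.0 and 2.52 ± 0.36. The summed level of the 10 seed genes was 48.2 to 56.7 FPKM in the control and 28.9 to 30.8 with GV at 5 min. At 30 min it was 35.9 to 42.5 and 55.0 to 56.8. Across the other compounds at 180 min it was 55.8 to 62.4 FPKM with IAA, 36.9 to 52.3 with GA3, 27.7 to 29.3 with ZT and 23.4 to 24.5 with eBL. In the GA3 libraries it went from 88.1 to 95.5 at 5 min to 13.0 to 15.2 at 30 min. The sum thus differed more between the GA3 groups of 5 and 30 min than between GV and control at 180 min. The part that seed material in the sampled pools had in these results was not tested.

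Among the 15 genes with the largest rises, 8 were higher and 0 lower with GV at 30 min, and at 5 min 2 were higher and CDEF1 was lower. The GV libraries of 30 min held PR1 at 7.28 ± 2.1 FPKM (SD, n = 3), above 2.76 ± 0.27 in their controls, and those of 5 min at 2.98 ± 0.59 beside 4.23 ± 0.53. Its level fell in the control from 30 to 180 min, by 0.72 (limma adjusted p = 0.00314). The control itself changed in 1379 genes upward (15.1%) and 859 downward (9.43%) between these times. Those counts were 1325 and 1064 after quantile normalization and 1097 and 1080 with median ratio scaling. PER69 fell by 0.82 in the control from 255 ± 23 to 143 ± 4.3 FPKM, while the GV libraries were at 329 ± 23 FPKM at 30 min and 336 ± 14 at 180 min. For CDEF1 the control went from 365 ± 11 to 201 ± 2.9 FPKM between these times, and GV from 456 ± 0.71 to 547 ± 16. These values share the 180 min libraries with the ranking, so they are given as levels beside it. In the list of seed and embryo regulators, 6 of 10 genes were lower and 0 higher at 30 min, with a median of -0.95, while 8 were higher and 0 lower at 5 min, with a median of 0.64. In the root cap and cell death list, 3 of 10 genes were higher and 0 lower at 30 min. Of the same genes 2 were higher and 3 lower at 5 min. In the endodermal barrier list none of 8 was called at either time. The summed level of that list in the control was 34.5 to 43.5 FPKM at 5 min. It was 48.6 to 53.9 at 30 min and 30.7 to 34.8 at 180 min. With GV the sum was 29.1 to 35.6, 49.8 to 51.5 and 54.8 to 58.4 FPKM at these times, so the control was lower at 180 than at 30 min.

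**Figure D4:**
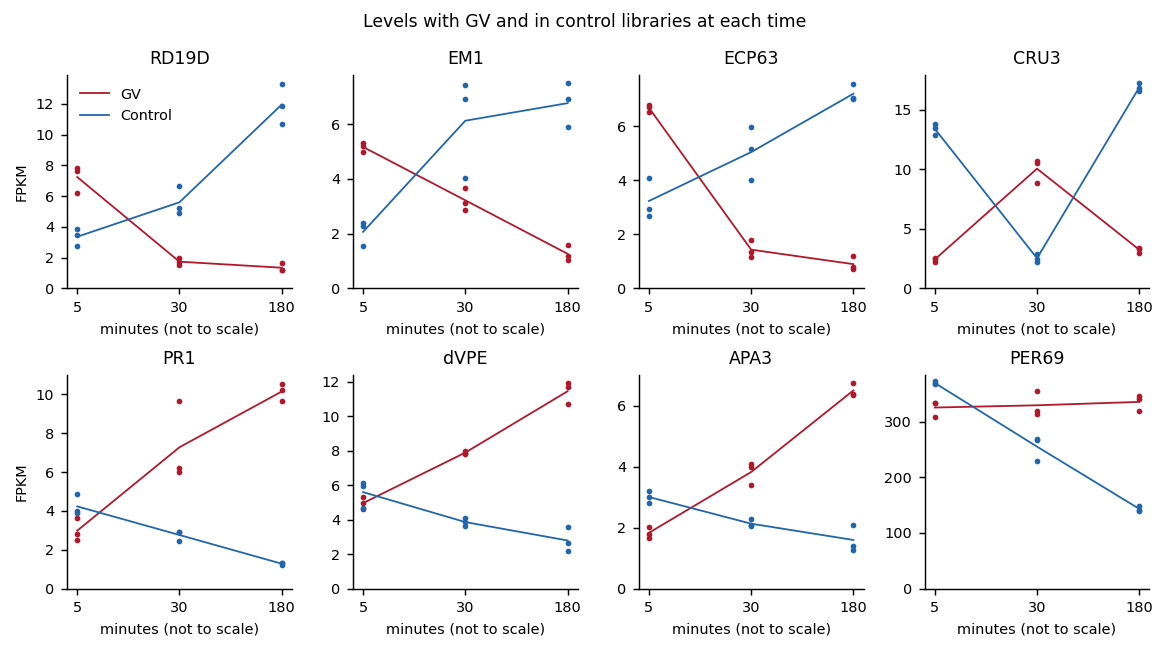
Level with GV (red) and in the control (blue) at 5, 30 and 180 min for 4 genes among the largest falls (top) and 4 among the largest rises (bottom). Points are single libraries, lines join the means of 3, the y axes are FPKM from 0, and the time axis is not to scale. In RD19D, EM1 and ECP63 the lines cross between 5 and 30 min, and CRU3 runs the other way at the first 2 times.

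The direct comparisons of GV with IAA and ZT at 180 min share the GV libraries with the ranking, so counts over the ranked genes are given without further reading. GV was given at 10 µM and each hormone at 1 µM, so no size here is at matched dose. GV was above IAA in 1188 genes (13.0%) and below it in 1289 (14.2%), and above ZT in 2620 (28.8%) and below it in 1610 (17.7%). After quantile normalization these counts were 1474 and 1021 for IAA and 2168 and 2126 for ZT. With median ratio scaling they were 1302 and 1073, and 2270 and 2125, so the balance of directions depended on the scaling. All 15 genes with the largest falls were lower with GV than with IAA, and 11 were lower than with ZT. CRU3 was higher than with ZT, where it was at 0.167 ± 0.075 FPKM (SD, n = 3). AT5G55410 was at 3.62 ± 0.89 FPKM with GV, 48.1 ± 2.9 with IAA, 5.01 ± 1.5 with ZT, 2.06 ± 0.59 with eBL and 12.9 ± 3.2 with GA3. VTE4 was at 4.29 ± 0.60, 32.7 ± 2.7, 4.06 ± 0.38, 7.10 ± 1.2 and 25.8 ± 6.3 FPKM in the same order. Of the 15 largest rises, 11 were higher with GV than with IAA and AT3G25290 was lower, and 12 were higher than with ZT. PR1 was at 10.2 ± 0.44 FPKM with GV and between 2.16 ± 0.69 (ZT) and 3.83 ± 0.42 (GA3) with the 4 hormones. AtGH9B15 was at 11.7 ± 1.3 FPKM with GV, 7.94 ± 1.7 with IAA, 2.01 ± 0.58 with ZT, 10.1 ± 0.40 with eBL and 16.9 ± 2.1 with GA3, so the GA3 libraries held the highest mean of this gene.

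**Figure D5:**
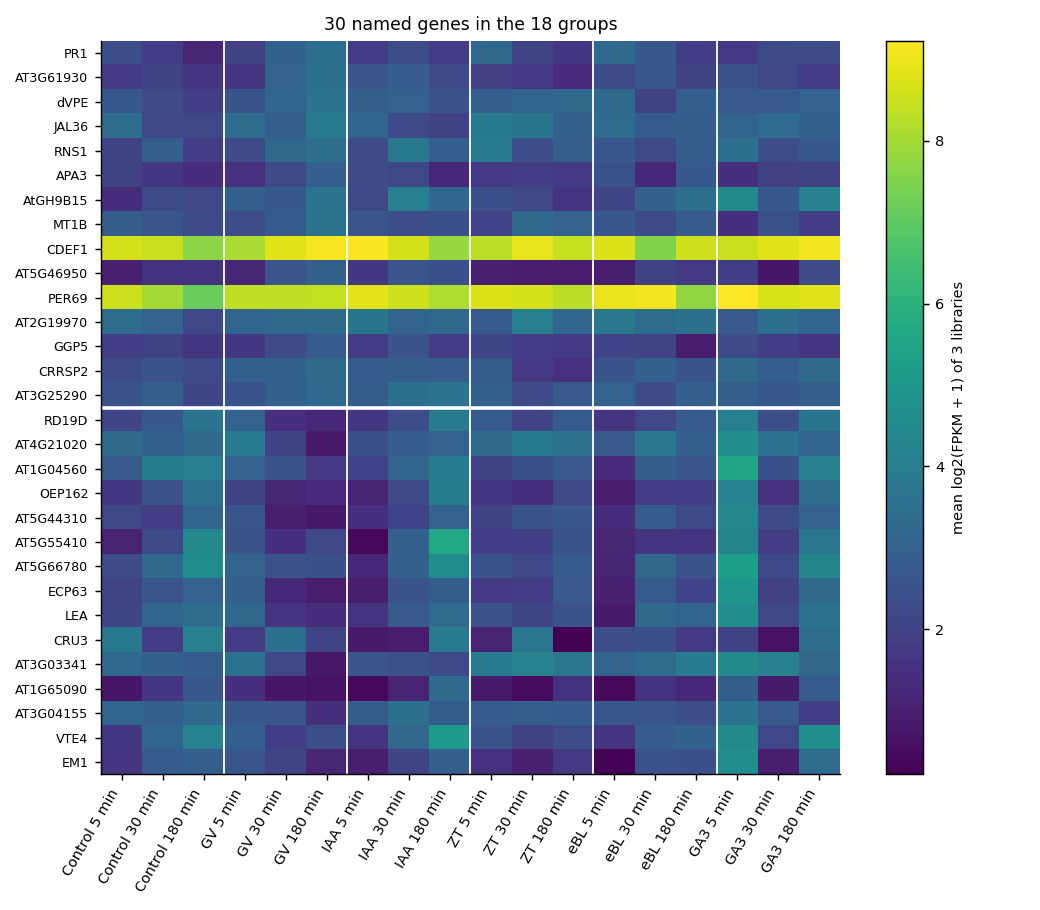
Mean level of the 15 genes with the largest rises (above the white line) and the 15 with the largest falls (below it) in all 18 groups. Colour is the mean log2(FPKM + 1) of 3 libraries, and white lines separate the compounds. The lower block is mostly dark in the GV column of 180 min and mostly bright with GA3 at 5 min.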

How the data were processed

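The authors deposited FPKM values of all libraries in 1 table, a unit that its header does not name and that the whole-read steps of the values gave. The submitters' processing notes name Bowtie2 2.2.3 and the TAIR10 build. The sources used here name no counter, strand setting or scaling, so antisense overlaps and near-identical copies cannot be separated. Of 24000 lines, 3 were damaged. There were 0 unmatched library columns. The planned test for normalized values was used: limma 3.58.1 (R 4.3.3, trend and robust) on log2(FPKM + 1), 1 mean per group, 54 libraries, 36 residual degrees of freedom. It was fitted on the 10622 genes at 1 FPKM or more in at least 1 group, with Benjamini-Hochberg adjustment over all of them. Fold changes on this scale understate changes of low genes. Named genes were the 15 largest rises and 15 largest falls with an adjusted p under 0.05, groups that do not overlap and 5 FPKM or more in the higher group, plus up to 4 called genes per list and direction. The genes and lists were chosen with earlier results of these data known. The code was checked on simulated data. Names are those of the table or of RefSeq, locations those of TAIR10.1, in which 99.9% of 23498 matched loci had the table's start and end. Alternatives were another pseudocount, filters, scalings, a fit of the compared groups alone, a replicate block, leaving out each library and fits without trend and robust settings. Results for some items are not reported here.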

Additional observations from a re-analysis of the deposited data

Results flagged for a closer look

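Among the 30 ranked genes, the effect of GV at 180 min was compared with its effect at the earlier times by an interaction contrast in the limma fit. Each value is the GV minus control difference at 180 min less that at the earlier time, on the log2(FPKM + 1) scale, and those with a Benjamini-Hochberg adjusted p under 0.05 are given. The genes were ranked on the 180 min difference that enters every value, so the size and sign of these differences are not independent of that choice, and no count is read from them.

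Against 30 min, the effect at 180 min was higher by 1.18 for PR1, 0.86 for dVPE, 0.92 for JAL36, 1.06 for AtGH9B15, 1.29 for MT1B, 1.12 for CDEF1, 0.85 for PER69, 0.98 for AT2G19970, 0.80 for GGP5, 0.62 for CRRSP2, 1.09 for AT3G25290. It was lower, with differences of -1.21 for RD19D, -1.46 for AT4G21020, -0.86 for AT1G04560, -1.05 for OEP162, -1.42 for AT5G44310, -1.51 for AT5G55410, -1.34 for AT5G66780, -3.73 for CRU3, -1.17 for AT3G03341, -1.13 for AT1G65090, -1.06 for EM1. CRU3 had the widest gap of these because its difference was positive at 30 min and negative at 180 min.

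Against 5 min, the effect at 180 min was higher by 2.69 for PR1, 2.08 for AT3G61930, 1.87 for dVPE, 1.76 for JAL36, 2.05 for APA3, 1.97 for MT1B, 2.0 for CDEF1, 1.3 for AT5G46950, 1.41 for PER69, 1.46 for AT2G19970, 1.34 for GGP5, 1.1 for AT3G25290. It was lower, with differences of -3.40 for RD19D, -3.03 for AT4G21020, -2.67 for AT1G04560, -2.61 for OEP162, -2.76 for AT5G44310, -3.70 for AT5G55410, -2.96 for AT5G66780, -3.00 for ECP63, -3.25 for LEA, -2.41 for AT3G03341, -2.67 for AT1G65090, -3.06 for VTE4, -2.81 for EM1.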

How the results depend on the processing

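Of 105 named genes, 80 were called under each alternative, 25 lost the call under at least 1 and 0 reversed. Leaving out each compared library in turn gave 430 to 458 higher genes (584 with all) and 249 to 282 lower (360). For the GV effect at 180 against 30 min this gave 256 to 299 higher and 96 to 129 lower, and against 5 min 330 to 405 and 378 to 429. It gave 988 to 1015 and 999 to 1081 for GV against IAA, 2330 to 2414 and 1347 to 1473 for GV against ZT, and 1013 to 1197 and 642 to 732 for the control at 180 against 30 min. Without the third eBL library at 30 min, 580 genes were lower at 180 min, and the change of the effect from 30 to 180 min passed in 555 genes upward and 275 downward. The cause was not tested. With replicate number as a block, 577 genes were higher and 355 lower. For the effect at 180 against 30 min the block gave 324 and 127, and against 5 min 421 and 451. It gave 1184 and 1259 against IAA, 2606 and 1613 against ZT, and 1362 and 858 for the control over time. Deviations of same-numbered libraries correlated at -0.050, -0.034 and -0.020, with no sign of pairing by number. That check rests on deviations from means of 3 libraries and could miss a shared culture or harvest. Only ABI5 and PHO1 among named genes lost their calls under the block. Genes near 1 FPKM rest on few reads, and genes with a mean over all libraries in the gap were not analysed here.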

Other observations

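Several genes outside the lists, chosen after their values were seen, changed by more than 1 on the log2(FPKM + 1) scale at 180 min. CCD8, an enzyme of strigolactone synthesis, was at 3.71, 3.3 and 4.73 FPKM with GV against 1.48, 1.14 and 1.17 in the control, a rise of 1.11 ± 0.15 (SE, limma adjusted p = 3.03e-07). TSF, a mobile flowering signal related to FT, was at 3.5, 3.2 and 3.37 FPKM against 1.19, 1.68 and 0.711, a rise of 1.01 ± 0.19 (limma adjusted p = 0.000216). PORA, the light-dependent chlorophyll synthesis enzyme of young etiolated tissue, was at 5.04, 4.96 and 4.06 FPKM against 14.5, 14 and 13.9, a difference of -1.42 ± 0.11 (limma adjusted p = 6.44e-13). The groups did not overlap in these 3 genes.

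Some families, also chosen after the values were seen, moved in part. Of 17 germin-like or other cupin genes, AT5G39110 rose by 1.60 and its neighbour in name AT5G39120 by 1.26, while AT2G28490 had a change of -0.81. Without the third eBL library at 30 min, or fitted on the compared groups alone, 5 cupins rose, and without the third GV library 2 fell. Of 21 papain-type cysteine proteases 4 rose and 3 fell (5 and 5 without that eBL library), and of 22 CASP family genes 3 rose and 0 fell. In the CASP family 1 rose without the third control library, 2 without the first control or the third GV library, and 5 without the third eBL library at 30 min or in the fit of the compared groups alone. Of 14 LEA hydroxyproline-rich glycoproteins 4 rose and 0 fell, with a median of 0.18. Only 2 rose without the second control library, and 3 without each of the other compared libraries in turn. Of 53 ribosomal protein genes 7 fell and 0 rose, with a median of -0.12. That count moved with single libraries, to 2 without the first control library, 3 without the second control or the first GV library, 4 without the third GV library and 17 without the third eBL library at 30 min. Fitted on the compared groups alone, 20 fell and 2 rose. Among the 209 most abundant genes 28 rose and 16 fell, but these counts and their balance were not stable. They were 60 and 61 in the fit of the compared groups alone, 50 and 43 without the third eBL library at 30 min, and 22 and 31 after quantile normalization. Only 10 fell without the first control, the second control or the first GV library. Of 63 chloroplast-encoded genes 2 rose and 1 fell.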
